A study of Mus musculus with 18 samples.

Results

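The 9 genes examined belong to the ubiquitin system and have a place in red cell remodelling: Ube2o, Ube2l6, Ube2h, Trim58, Trim10, Rnf123, Ubac1, Fbxo30 and Ubb. They were taken by gene symbol from a table of nascent RNA counts, where they are 9 of 54232 rows. RNA made during a short labelling time was measured by 4sU-seq, in which cells build 4-thiouridine (4sU) into new RNA that is then coupled to biotin, purified and sequenced. The cells came from livers of C57BL/6 mouse embryos at e12.5 to e13.5 and carried no engineered allele. The 5 erythroid populations were lineage-negative cells sorted on CD71, the transferrin receptor, and Ter119, a surface marker of maturing erythroid cells: S0-Low (CD71-, Ter119-), S0-Medium (CD71 medium, Ter119-), S1 (CD71 high, Ter119-), S2 (CD71 high, Ter119 medium) and S3 (CD71 high, Ter119 high). Lin+ cells were those stained by the lineage antibodies. After sorting, all populations were rested in culture for 6 h and given 500 µM 4sU for 45 min, so none was measured straight from the liver. Each of the 6 populations had 3 replicate libraries, 18 in all. The sources used here do not say whether replicates came from separate litters or pools, so p-values measure the spread between these libraries only.

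Ubiquitin is attached to proteins in a relay: an E1 enzyme activates it, an E2 enzyme carries it and an E3 ligase chooses the target, which is then often degraded by the proteasome. Maturing erythroid cells use this relay to strip out ribosomes, organelles and most proteins other than haemoglobin before and after the nucleus is lost. Ube2o, Ube2h and Ube2l6 are E2 enzymes, Trim58, Trim10, Rnf123 and Fbxo30 are E3 ligases or their target-binding subunits, Ubac1 is a partner of Rnf123, and Ubb encodes ubiquitin itself.

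The total count per library ranged from 9452476, in replicate 3 of S0-Low, to 40567976. Levels in CPM are counts relative to the effective library size, which is the total times the TMM scaling factor, and on that scale a floor of 3 counts ranged from 0.0622 to 0.249 CPM over the libraries. PCR without molecular identifiers was used to make the libraries, so such floors cover counting error only. The summed level of 10 erythroid markers was 652 to 1495 CPM in S0-Low, 3737 to 7742 CPM in S1, 28134 to 47918 CPM in S3 and 304 to 359 CPM in Lin+. The labels also call the Lin+ cells erythroblasts, but 9 granulocyte and monocyte markers summed to 3715 to 6167 CPM there. The same markers summed to 509.9 to 859 CPM in S0-Low and to at most 1.44 CPM in S3. The sum of 6 stem and progenitor markers went from 986 to 1416 CPM in S0-Low to at most 10.8 CPM in S3, and that of 6 lymphoid markers from 100.3 to 174 CPM to at most 0.316 CPM. These 3 sums were thus lower in S3 than in S0-Low, opposite to the 9 genes. That of 5 megakaryocyte markers overlapped, at 32.6 to 142 CPM in S0-Low and 18.3 to 86.6 CPM in S3, with 13.6 to 22.9 CPM in S2. Itgam, the gene of the sorted CD11b antigen, was at 0 in all libraries of every population, so it does not tell Lin+ cells from the others. In each erythroid population replicate 3 had the highest mean erythroid marker level. It was also the highest library for 9 of the 9 genes in S3, 8 in S2, 7 in S1, 7 in S0-Medium and 3 in S0-Low. The part of these marker levels in the values below was not tested. These are bulk samples, so fewer cells of a type and less RNA per cell cannot be told apart.

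The 250 bases upstream of the annotated starts were read for short letter patterns of factors known from erythroid, stress or interferon genes (RefSeq, GRCm38.p6, 10 starts for 8 of the 9 genes). AGATAA or TGATAA, the letters bound by GATA factors, occurred on either strand at 2 of the 10 starts, those of Trim10 and of the inner start of Ube2h, against 16.6% of 32851 promoters. CCNCNCCC, letters bound by KLF factors, occurred at 6 of the 10 starts, those of Ubac1, Ube2l6, Ube2h (both starts) and Ubb (both starts), against 45.9% of all promoters. GAANNTTC, from heat shock elements, and GAANNGAAA, from interferon response elements, were at none of the 10 starts, against 6.69% and 6.31% of promoters. A match to such letters is a description and not a binding site. The stretches below are those of the 3 genes called by S1 (Trim10, Ubac1, Ube2l6) and of the inner start of Ube2h. Each runs 5′ to 3′ on the strand of its gene, with the matched letters of either strand in capitals.
Trim10, chr17:36869384-36869443, plus strand: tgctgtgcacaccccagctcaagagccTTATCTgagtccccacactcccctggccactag
Ubac1, chr2:26021823-26021882, minus strand: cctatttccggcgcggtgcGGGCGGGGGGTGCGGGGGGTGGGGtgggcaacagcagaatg
Ube2l6, chr2:84798751-84798810, plus strand: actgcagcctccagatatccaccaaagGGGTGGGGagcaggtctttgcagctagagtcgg
Ube2h, chr6:30243975-30244034, minus strand: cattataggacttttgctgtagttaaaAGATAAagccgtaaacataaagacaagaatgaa
The capitals in Trim10 are AGATAA read from the opposite strand, 163 to 158 bases before the start, and those in Ube2h are AGATAA on the gene's own strand, 204 to 199 bases before its inner start. In Ubac1 the run of capitals is made of 4 overlapping or adjoining CCNCNCCC matches on the opposite strand, between 103 and 80 bases before the start, where Ube2l6 has a lone match 50 to 43 bases before its start.

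From the CD71- progenitors of S0-Low to the Ter119 high cells of S3, nascent RNA of all 9 genes rose. The rise ran from 3.83-fold for Ubb to 754-fold for Trim10, and each S3 library lay above each S0-Low library for every gene of the 9. With the 15 erythroid libraries in a single edgeR quasi-likelihood fit over 16555 genes, 9 of the 9 passed at a Benjamini-Hochberg adjusted p under 0.05 in the direction of S3, where 13.4% of the genes tested did. A gap between all libraries of the populations, S3 above S0-Low, was seen for 16.6% of the genes tested. The median log2 fold change was 4.88 over the 9 genes and -0.54 over all genes tested. Scaling to library totals in place of TMM moved the median of all genes to -1.36, and 8 of the 9 genes then passed, Ubb being the exception, where 6.98% of the genes tested did. All 9 also passed without the shallowest S0-Low library and the shallowest S3 library, left out together, and with the replicate number as a block, where 11.8% and 15.9% did.

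**Figure D1:**
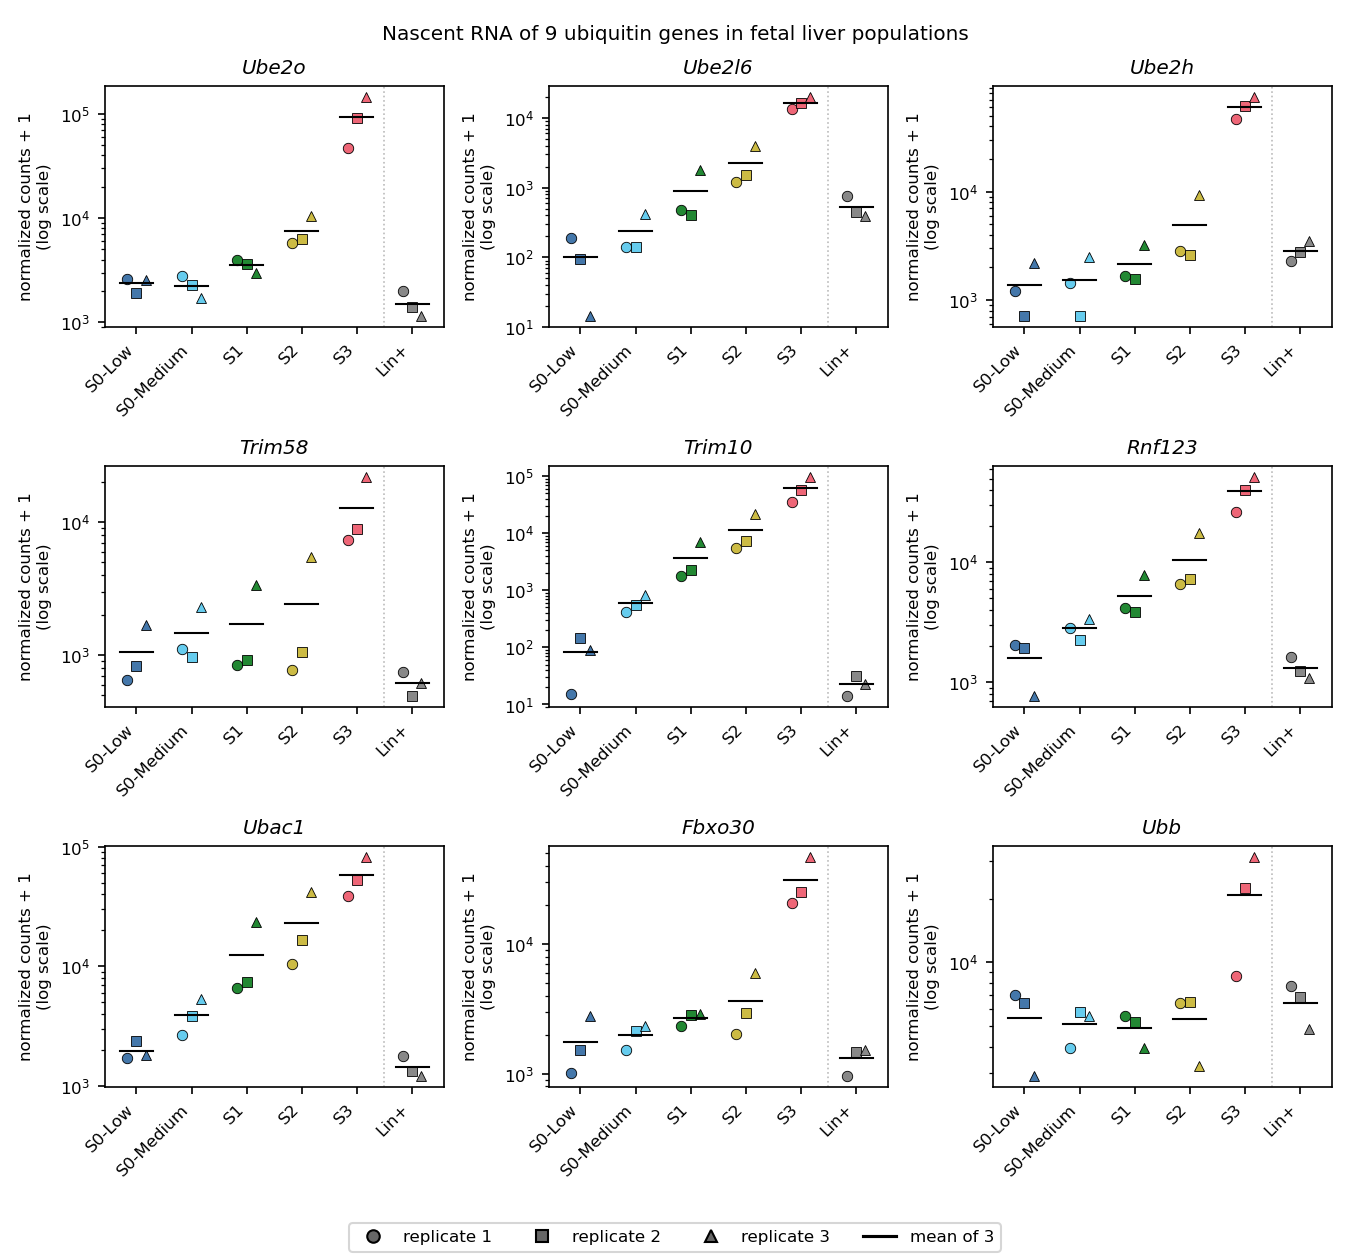
Nascent RNA of the 9 genes in each library, as counts scaled to a common effective library size plus 1 on a log axis; symbols mark replicates and bars the mean of 3. The S1 means of Ube2o, Ube2h, Trim58, Fbxo30 and Ubb were at most 1.62 times those of S0-Low, and all S3 libraries sat above all S0-Low libraries in every panel.

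Ube2o (chr11:116537740-116581503, GRCm38) encodes a large enzyme that acts as E2 and E3 at once and marks ribosomal proteins for removal in reticulocytes. Its normalized counts, scaled to a common effective library size, were 2602, 1921 and 2563 in the 3 S0-Low libraries, 2762, 2256 and 1701 in S0-Medium and 3944, 3650 and 2963 in S1. They were 5711, 6327 and 10555 in S2 and 46654, 90463 and 145210 in S3. Every S1 library lay above every S0-Low and S0-Medium library, by 1.49-fold in the mean over S0-Low, and every S3 library was above every other library. The log2 fold change from S0-Low to S3 was 5.32 (SE 0.45, adjusted p = 1.91e-06, edgeR).

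Ube2h (chr6:30211289-30304539) encodes the E2 enzyme that works with the CTLH ligase complex. It gave 1209, 709 and 2181 normalized counts in S0-Low, 1447, 713 and 2481 in S0-Medium, 1685, 1576 and 3201 in S1, 2834, 2618 and 9258 in S2 and 46824, 60893 and 74300 in S3. Libraries of neighbouring populations overlapped as far as S2, with replicate 3 the highest each time, and S3 stood apart. The log2 fold change from S0-Low to S3 was 5.47 (SE 0.66, adjusted p = 3.20e-05). Ube2h shares 52.1% of its 31-base stretches with other genes, with the annotated gene Gm2058 the most, so counts could pass between them. Gm2058 held 22 to 568 counts in the S3 libraries and at most 64 in the other erythroid libraries, and the part of the shared sequence was not tested.

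Ube2l6 (chr2:84798828-84810003) encodes the E2 enzyme that carries ISG15, a ubiquitin-like protein induced by interferon. Its normalized counts were 190, 92.5 and 13.3 in S0-Low, the last of these being 5 reads, then 141, 138 and 424 in S0-Medium and 475, 402 and 1805 in S1. They reached 1223, 1493 and 3951 in S2 and 13261, 16583 and 19976 in S3. Every S1 library lay above every S0-Low library, whereas the S0-Low and S0-Medium libraries overlapped. Its change from S0-Low to S3 of 7.35 on the log2 scale (SE 0.96, adjusted p = 5.65e-05) was the largest of the 31 E2 genes tested. Part of its transcript sequence (9.56% of 31-base stretches) is shared with other genes, with Pigl the most. Pigl had 637 to 1506 normalized counts in S0-Low, above Ube2l6, and 182 to 480 in S3. The part of the shared sequence was not tested.

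Trim10 (chr17:36869496-36877833), a tripartite motif (TRIM) ligase needed for terminal erythroid differentiation in culture models, changed most. Its normalized counts were 14.1, 148 and 87.7 in S0-Low, 413, 541 and 819 in S0-Medium, 1752, 2306 and 7090 in S1, 5439, 7175 and 21511 in S2 and 34658, 56783 and 96632 in S3. No S0-Medium library overlapped with S0-Low, nor any S1 library with S0-Medium. The log2 fold change to S3 was 9.56 (SE 1.03, adjusted p = 1.27e-05).

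Trim58 (chr11:58640465-58652404), the erythroid TRIM ligase that degrades the motor dynein around enucleation, had 651, 834 and 1679 normalized counts in S0-Low, 1121, 967 and 2317 in S0-Medium, 839, 925 and 3373 in S1, 773, 1066 and 5493 in S2 and 7324, 8911 and 21805 in S3. In replicates 1 and 2 its level in S2 was near that of S0-Low, whereas in replicate 3 it was higher at each stage. The log2 fold change from S0-Low to S3 was 3.59 (SE 0.80, adjusted p = 0.00306).

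Rnf123 and Ubac1 encode the catalytic and the accessory subunit of the Kip1 ubiquitination-promoting complex, which degrades the cell cycle inhibitor p27 (Cdkn1b). Rnf123 (chr9:108051672-108080352) had 2056, 1928 and 762 normalized counts in S0-Low, 2837, 2233 and 3362 in S0-Medium, 4124, 3850 and 7789 in S1, 6633, 7313 and 17467 in S2 and 26311, 40034 and 51669 in S3. Ubac1 (chr2:25996958-26021781) had 1716, 2360 and 1790 in S0-Low, 2656, 3835 and 5332 in S0-Medium, 6589, 7334 and 23301 in S1, 10456, 16428 and 41828 in S2 and 38349, 52499 and 82003 in S3. Within each series of same-numbered libraries, both genes had a higher level at every stage than at the stage before. Their log2 fold changes from S0-Low to S3 were 4.63 (SE 0.52, adjusted p = 1.85e-05) for Rnf123 and 4.88 (SE 0.63, adjusted p = 4.92e-05) for Ubac1. Cdkn1b, their target, had 872, 922 and 4962 normalized counts in S0-Low and 2894, 6303 and 22406 in S3. All 3 pairs of libraries with the same number had more in S3, although the populations overlapped. It did not pass in the same comparison (log2 fold change 2.23, SE 0.97, adjusted p = 0.0825) but passed with the replicate number as a block (2.27, SE 0.31, adjusted p = 5.45e-05), a fit added after the values were seen. The annotated span of Rnf123 overlaps Gmppb by 252 bases and holds Amigo3 within it; Gmppb had 0 to 783 normalized counts in S3 and Amigo3 had 0 counts in every library, which allows up to 0.227 CPM in the shallowest S3 library.

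Fbxo30 (chr10:11281330-11305750) encodes an F-box protein, the part of an SCF ligase that binds the target. It had 1013, 1513 and 2781 normalized counts in S0-Low, 1514, 2140 and 2352 in S0-Medium, 2354, 2818 and 2906 in S1, 2036, 2958 and 5998 in S2 and 20564, 25131 and 46722 in S3. The 4 populations up to S2 spanned 1013 to 5998, and every S3 library was above all of them. Its log2 fold change was 4.12 (SE 0.50, adjusted p = 3.04e-05).

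Ubb (chr11:62551171-62553213), which encodes a chain of ubiquitin units and is known as a stress-inducible source of ubiquitin, changed least. Its normalized counts were 7013, 6408 and 2893 in S0-Low, 3935, 5835 and 5578 in S0-Medium, 5565, 5245 and 3919 in S1, 6431, 6507 and 3246 in S2 and 8649, 22412 and 31510 in S3. Replicate 3 was the lowest library in S0-Low, S1 and S2 but the highest in S3. The log2 fold change from S0-Low to S3 was 1.94 (SE 0.45, adjusted p = 0.00429), and with library totals it was 1.06 (adjusted p = 0.0505), so its call depended on the scaling.

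Rps27a, which encodes ubiquitin fused to a ribosomal protein, had 8552, 9189 and 4032 in S0-Low and 5571, 5154 and 1362 in S3 (log2 fold change -0.85, adjusted p = 0.218). It passed as lower with library totals (-1.61, adjusted p = 0.0316), where the median of all genes tested was -1.36. Of 8 heat shock and stress genes tested, Ubb included, 4 rose and 0 fell, with a median log2 fold change of 1.11 (2 rose and 0 fell with library totals, 4 and 1 with the replicate block). The others that rose were Hspa1a, at 16.5 to 85.0 normalized counts in S0-Low and 3916 to 5307 in S3, Hspa1b, at 216 to 311 and 6402 to 7354, and Dnajb1, with a log2 fold change of 1.66. Hspa1a and Hspa1b are near-identical copies, so the split of counts between them is uncertain.

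**Figure D2:**
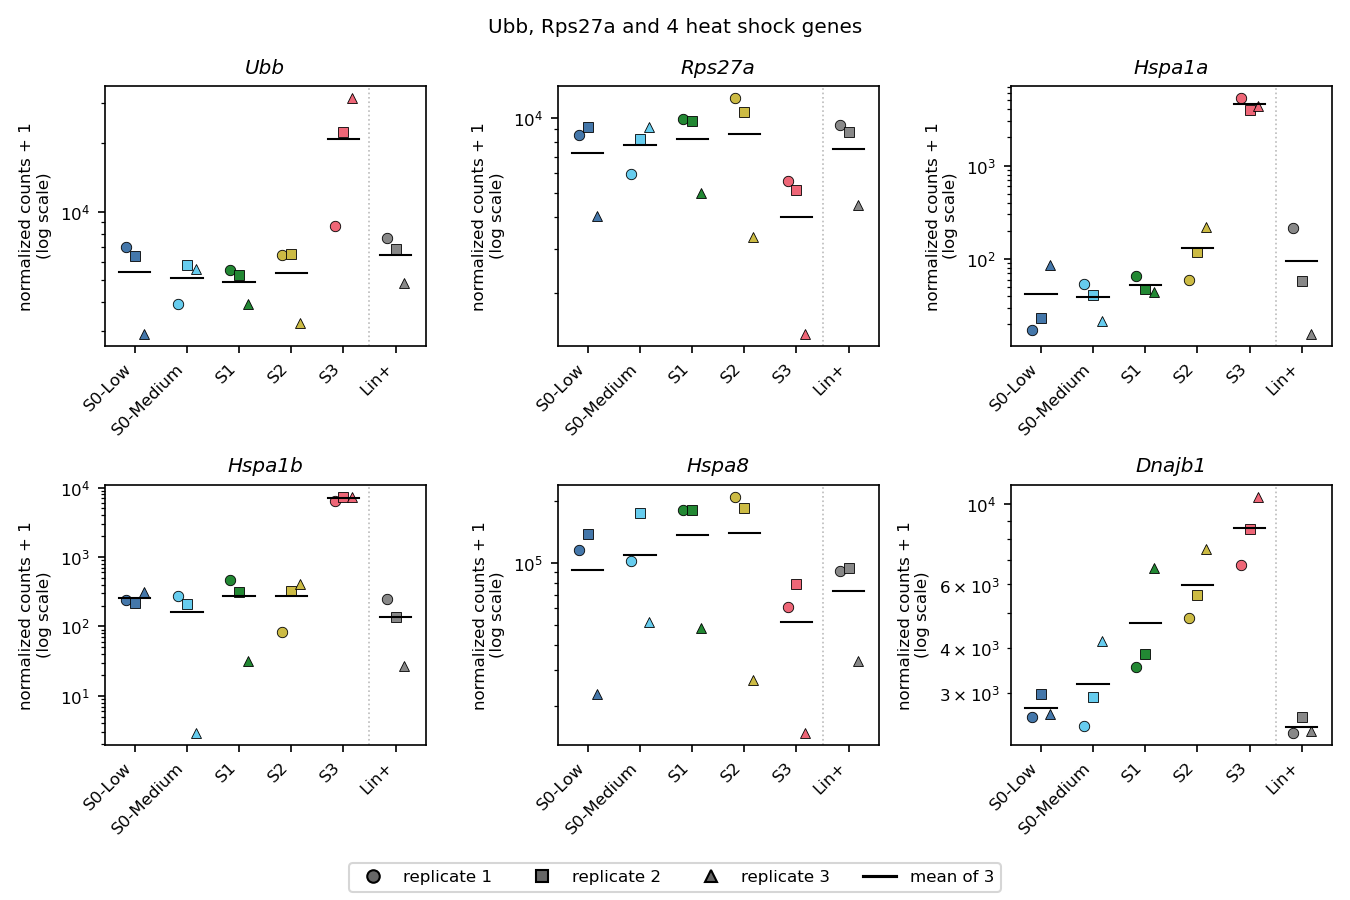
Normalized counts plus 1 on log axes for Ubb, Rps27a and 4 heat shock genes, by library; symbols mark replicates and bars the mean of 3. The means of Ubb, Hspa1a, Hspa1b and Dnajb1 were highest in S3, while the S3 libraries of Rps27a lay at 1362 to 5571, overlapping those of S0-Low.

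The rise was then divided at S1. Between S0-Low and S1, 3 of the 9 genes passed, where 0.979% of the genes tested were higher in S1: Trim10 (log2 fold change 5.48, SE 0.86, adjusted p = 0.00474), Ubac1 (2.66, SE 0.57, adjusted p = 0.0191) and Ube2l6 (3.13, SE 0.80, adjusted p = 0.0458). Rnf123 lay just outside (1.72, SE 0.46, adjusted p = 0.0588) and passed with the replicate number as a block (1.56, adjusted p = 0.0404), where 2.81% of the genes tested were higher. The calls for Ubac1 and Ube2l6 were lost when any of the S0-Low libraries, or replicate 3 of S1, was left out, and that for Ube2l6 also without replicate 1 or 2 of S1, while Trim10 passed each time. With a library left out the values ran from 4.61 to 6.19 for Trim10, 1.83 to 2.93 for Ubac1 and 2.11 to 3.91 for Ube2l6. The other 5 genes had log2 fold changes between -0.15 for Ubb and 0.70 for Trim58. Between S1 and S3, 9 of the 9 genes passed, where 7.21% of the genes tested were higher in S3, with log2 fold changes from 2.09 for Ubb (SE 0.46) to 4.82 for Ube2h (SE 0.64). Trim58 and Ubac1 were no longer called between S1 and S3 when replicate 1 or 2 of S1, or replicate 3 of S3, was left out.

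The difference between the rise from S1 to S3 and the rise from S0-Low to S1 was tested in the same fit, a contrast added after the values were seen. It passed for Ube2o (4.18 on the log2 scale, SE 0.72, adjusted p = 0.012), where 0.223% of the genes tested passed with a positive difference. Ube2h (4.17, SE 1.05, adjusted p = 0.0707) and Fbxo30 (2.92, SE 0.81, adjusted p = 0.0949) did not pass, nor did Trim58 (2.20, SE 1.31, adjusted p = 0.447) or Ubb (2.25, SE 0.80, adjusted p = 0.196). With the replicate block 4 of the 9 genes passed: Ube2o, Ube2h, Trim58 (2.55) and Fbxo30 (2.66), where 2.48% of the genes tested did. The call for Ube2o was lost when any of the S1 libraries was left out, at values from 3.94 to 4.46. Ube2h passed without replicate 2 of S3 (4.16, adjusted p = 0.0489). The value for Trim58 was 4.09 without replicate 3 of S1 and 1.50 to 1.65 without replicate 1 or 2 of S1 or replicate 3 of S3, passing in none of these. For Trim10 and Ubac1 the difference was -1.40 (SE 1.20) and -0.44 (SE 0.92), and it turned to 0.33 and 1.21 without replicate 3 of S1. Ube2l6 (1.09, SE 1.30, adjusted p = 0.745) and Rnf123 (1.19, SE 0.80, adjusted p = 0.511) did not pass in edgeR. Their values ran from 0.33 to 3.12 and from 0.81 to 1.96 with a library left out.

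**Figure D3:**
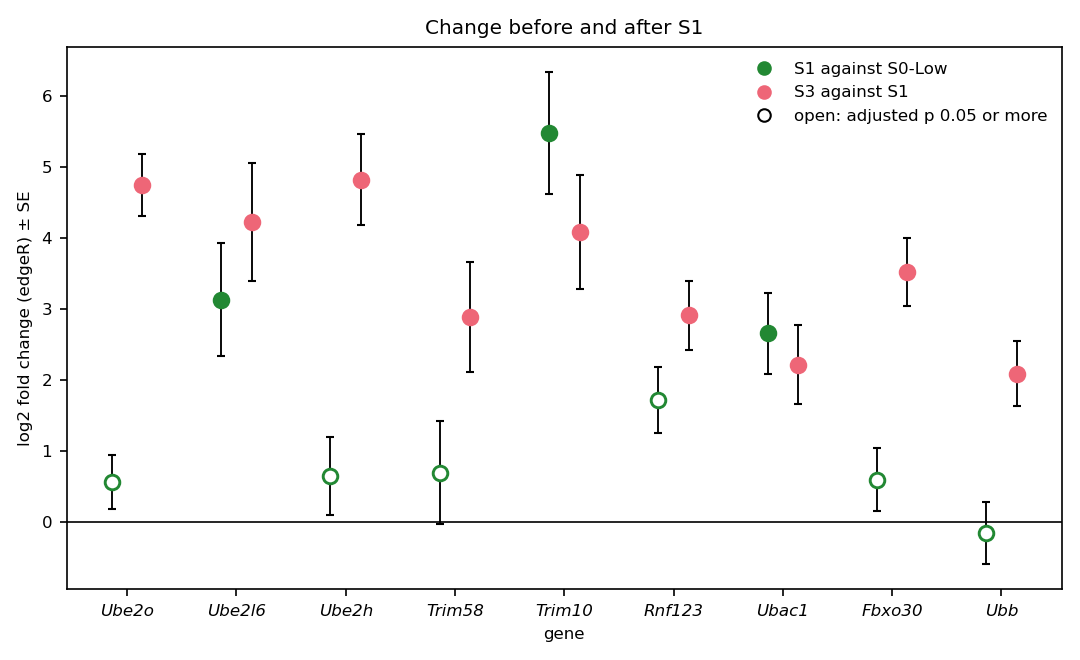
Log2 fold changes (edgeR) with standard errors for the 9 genes from S0-Low to S1 and from S1 to S3, from the fit over 15 libraries; open symbols mark an adjusted p of 0.05 or more. Trim10, Ube2l6 and Ubac1 changed in both intervals, and the 9 later changes, from 2.09 to 4.82, all passed.

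Between S2 and S3, the last step, 7 of the 9 genes passed, where 3.26% of the genes tested were higher in S3. The largest changes were those of Ube2o (log2 fold change 3.65, SE 0.42, adjusted p = 0.000217), Ube2h (3.64, SE 0.61, adjusted p = 0.00224) and Fbxo30 (3.08, SE 0.47, adjusted p = 0.00136). Ube2l6 (2.91), Trim10 (2.47), Ubb (1.96) and Rnf123 (1.92) also passed, with adjusted p between 0.0146 and 0.0488, and Trim10 did not pass there with library totals (1.95). Trim58 (2.38, SE 0.76, adjusted p = 0.0608) and Ubac1 (1.34, SE 0.54, adjusted p = 0.129) did not, but with the replicate block all 9 passed, where 7.3% of the genes tested did (Trim58 2.70, adjusted p = 8.61e-05, and Ubac1 1.48, adjusted p = 0.00636). Leaving out a library gave between 3 and 9 calls here, the fewest without replicate 3 of S3 and 4 without replicate 1 or 2 of S2. The value for Trim58 then ran from 1.72 to 3.78 and that for Ubac1 from 0.977 to 2.09.

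None of the earlier single steps gave a call in edgeR for any of the 9 genes or for any other gene (0% of the 16555 tested at each of the 3 steps). At an unadjusted p under 0.05, 1 of the 9 genes was higher at the step into S0-Medium, 3 were higher in S1 than in S0-Medium and 4 in S2 than in S1, where 1.78%, 1.68% and 1% of the genes tested were. DESeq2 called 0, 1 and 0 of the 9 at these steps, the call being Trim10, where 0.178%, 0.229% and 0.0416% of the genes with an adjusted p were higher. With the replicate block edgeR called Trim10 at the step into S0-Medium (2.95, adjusted p = 0.0419) and as higher in S1 than in S0-Medium (2.44, adjusted p = 0.0387), where 0.133% and 0.169% of the genes tested were higher.

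Levels were compared between genes per kilobase of the longest annotated coding transcript. In S0-Low, Ubb was highest at 3628 ± 1484 normalized counts per kilobase (SD, n = 3), apart from Ubac1 at 1056 ± 190. Trim58, Ube2o, Fbxo30, Rnf123 and Ube2h followed between 481 and 293 with overlapping libraries, and Ube2l6 (63.2 ± 56.8) and Trim10 (37.1 ± 29.9) were lowest. In S3, Ubac1 was highest at 31111 ± 12026 and Trim10 next at 28025 ± 14040, and the order went on with Ube2o, Ubb, Ube2h, Ube2l6, Rnf123 and Fbxo30 to Trim58 at 5785 ± 3623. Each gene overlapped with its neighbour in that order in S3, so the order of neighbours was not resolved, and in S0-Low the libraries of Ube2l6 and Trim10 overlapped too. Trim10 was thus among the 2 lowest genes in S0-Low and had the second highest mean in S3.

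Lin+ cells, which have myeloid marker RNA, held each of the 9 genes below every S3 library. Trim10 was nearly absent there, at 12.9, 30.1 and 21.9 normalized counts, and Ube2o was at 1983, 1399 and 1142. All 9 genes passed as higher in S3 than in Lin+, where 14.1% of 17755 genes did, with log2 fold changes from 1.69 for Ubb (SE 0.43) to 11.5 for Trim10 (SE 1.06), and Ubb did not pass with library totals (0.85). Between Lin+ and S0-Low edgeR called 0 of the 9 in either direction, where 0.496% of the genes tested were higher in Lin+ and 0.22% lower. At an unadjusted p under 0.05, which 6.89% of the genes tested reached as higher and 2.96% as lower in Lin+, Ube2l6 was higher (751, 444 and 386 normalized counts, log2 fold change 2.37, adjusted p = 0.186) and Trim10 lower (-1.92, adjusted p = 0.346), and DESeq2 called Ube2l6 and no other, where 2.78% of genes with an adjusted p were higher in Lin+.

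Other genes of the same families moved in both directions. The lists were drawn up with earlier results of these data known, so their counts are descriptive, and each is from S0-Low to S3. Of all genes tested in this comparison 13.4% rose and 22.4% fell, with a median log2 fold change of -0.54. With library totals 6.98% rose and the median was -1.36, and with the replicate block 15.9% rose. Of 31 E2 genes tested, 10 rose and 5 fell (7 and 7 with library totals, 13 and 5 with the replicate block), with a median log2 fold change of 0.43, and the 3 largest rises were those of Ube2l6, Ube2h and Ube2o. The lowest values were those of Ube2d1 (434 to 662 normalized counts in S0-Low and 0 to 28.8 in S3), Ube2e1 (log2 fold change -4.88) and Ube2e2 (-4.77). Of the 3 E1 genes, Uba1, the main ubiquitin E1, stayed at a log2 fold change of 0.40 (SE 0.48) and Uba6 at -0.65 (SE 0.48), neither passing, while Uba7, the E1 for ISG15, rose by 3.89 (SE 0.61, adjusted p = 0.000237). Uba6 passed as lower with library totals (-1.58).

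Isg15 itself, which uses Uba7 and Ube2l6, also rose. It had 0, 6 and 0 reads in S0-Low and 149, 322 and 56 in S3. The rest of the interferon list was mixed: of 14 genes tested 3 rose (Isg15, Uba7 and Irf9, the last by 2.21) and 2 fell, namely Stat2 (-1.53) and Bst2, which had 8 to 288 reads in S0-Low and at most 1 in S3. With library totals 3 rose and 4 fell, and with the replicate block 3 rose and 3 fell.

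Of the 11 subunits of the CTLH complex, the ligase that works with Ube2h, 6 rose and 1 fell, with a median of 1.17. Ranbp10 rose most, from 2373, 2466 and 4399 normalized counts in S0-Low to 79912, 103056 and 131490 in S3 (log2 fold change 5.09, SE 0.70). Ypel5 (4.06), Wdr26 (3.24), Gid8 (2.42), Rmnd5a (1.93) and Mkln1 (1.17) also rose, whereas Gid4, a target receptor of the complex, fell (-1.31). The catalytic subunit Maea had 3613, 3405 and 3262 normalized counts in S0-Low and 1269, 2856 and 3473 in S3 (-0.44, adjusted p = 0.29), and Armc8 (-0.14), Ranbp9 (0.26) and Rmnd5b (-0.80) did not pass. With library totals 4 subunits rose and 4 fell, Maea (-1.32) among the latter, where the median of all genes tested was -1.36.

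Of 46 TRIM genes tested, 11 rose and 16 fell (7 and 23 with library totals, 12 and 18 with the replicate block), and the median was -1.01. Over all genes tested 13.4% rose and 22.4% fell. Trim15 had the largest fitted rise along with Trim10, from 0, 4 and 0 reads in S0-Low to 548, 1153 and 295 in S3. It lies 2129 bases from Trim10 on chr17. Trim38, whose fitted change was next, rested on 81 reads in a single S3 library, with 0 in the other S3 and all S0-Low libraries. The 3 lowest, Trim3, Trim65 and Trim62, had between 35 and 430 reads in each S0-Low library and 0 in each S3 library, which allows up to 0.227 CPM in the shallowest of these.

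Among 21 SCF and F-box genes 6 rose and 2 fell (5 and 2 with library totals, 9 and 2 with the replicate block), with a median of 0.49. Fbxo30 had the largest rise, followed by Fbxo34 (3.92) and Btrc (3.86), the latter being the F-box protein of β-catenin turnover, while Fbxo21 (-2.24) and Fbxl5 (-1.23), an iron-sensing F-box protein, fell. Of 14 deubiquitinases and related genes 6 rose and 1 fell (6 and 6 with library totals, 7 and 3 with the replicate block), with a median of 0.53. Usp32 (4.85), Ubap1 (3.00) and Otud5 (2.45) rose most, and Uchl1 went from 10 to 30 reads in S0-Low to 0 in S3. Of 8 known targets and partners of the 9 genes, 0 rose and 1 fell in edgeR (0 and 4 with library totals), the clock gene Arntl by 1.57. With the replicate block 3 rose, Cdkn1b and the dynein subunit genes Dync1i2 (0.62) and Dync1li1 (0.60), and Arntl fell.

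**Figure D4:**
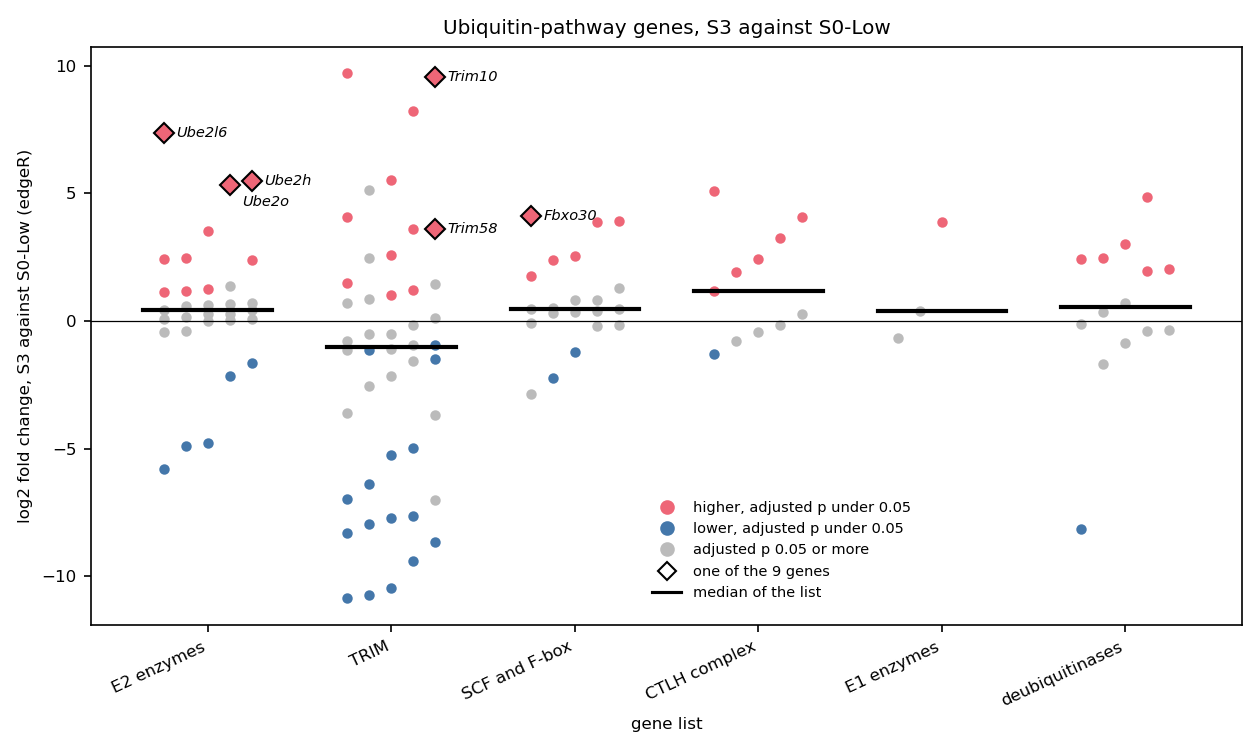
Log2 fold change from S0-Low to S3 (edgeR) for the tested genes of 6 ubiquitin-pathway lists; each dot is a gene, colours mark an adjusted p under 0.05 in either direction, diamonds mark genes of the 9 and bars the list median. The 3 E2 diamonds lie above all other E2 genes, while the TRIM median is -1.01.

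As a description over the 15 erythroid libraries, which share the same stages and depth differences, the 9 genes were compared by Pearson's r of log2(CPM + 0.5). Over the 28 pairs of genes other than Ubb, r ranged from 0.774 (Trim58 and Trim10) to 0.991 (Ube2l6 and Rnf123), with a median of 0.888. Over the 8 pairs with Ubb it ranged from 0.546 (with Trim10) to 0.805 (with Ube2o), with a median of 0.684, so both ranges overlapped. Nearest genes were ranked among 11811 expressed genes, less the 9 themselves. The closest to Trim10 were Slc4a1 (0.992), the anion exchanger of the red cell membrane, and Kel (0.990). The closest to Ube2o were Slc2a1 (0.992), a glucose transporter, and D5Ertd579e. Gfap and Snx22 were closest to Ube2l6, Specc1 and Mtmr3 to Ube2h, Ezh1 and 4931406P16Rik to Trim58, Ehbp1l1 to Rnf123, Rab3il1 and Fhdc1 to Ubac1, Asb1 and Dennd4a to Fbxo30, and Aldoc (0.952) and Pabpc1 to Ubb. By Spearman's rho, 2 of the 18 nearest genes were the same.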

How the data were processed

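Nascent RNA was measured in 18 libraries, 3 replicates of each of 6 populations, grouped by the submitted labels. The authors made stranded libraries by PCR without molecular identifiers, sequenced 75-base read pairs and quantified them with kallisto (version 0.43.0 and build GRCm38, per the submitters' processing notes). They deposited whole-number counts per gene, not normalized and not pooled. The transcript set and the handling of introns are not given in the sources used here. kallisto shares reads between transcripts of like sequence, so near-identical genes are uncertain.

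The test on the deposited counts was that of edgeR 4.0.16 in R 4.3.3 (quasi-likelihood, TMM, filterByExpr by population, two-sided, Benjamini-Hochberg over all genes tested, threshold 0.05) on the 15 erythroid libraries (16555 genes) or, for Lin+, all 18 (17755 genes). SE is the log2 fold change divided by the square root of F. Normalized counts were obtained by scaling each library to the average effective size. Coordinates, starts and promoter sequences came from RefSeq (GRCm38.p6) and matched 9, 9 and 8 of the 9 genes. Transcript lengths and shared 31-base stretches came from an older annotation of NCBIM37, of which no coordinates were used. Figures were drawn with Python 3.11.15 and matplotlib 3.10.9.

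The 9 genes, the gene lists and the marker lists were chosen with earlier results of these data known. Genes were named by rule: all 9, up to 3 of the largest rises and falls from S0-Low to S3 per list, every CTLH and E1 gene, Rps27a, and the 2 genes with the highest Pearson r to each of the 9 (mean of at least 1 CPM). Fbxo31 was not analysed here. Results for 3 other genes that the rule names are not reported here, and list counts leave out those of the 3 that were on a list. Alternatives were DESeq2 1.42.0, RLE factors, library totals, other filters, a robust fit, globins left out, the replicate number as a block, other sets of libraries and each replicate left out in turn. On simulated data (16050 genes, S3 against S0-Low) edgeR recovered 0% of 55 genes changed 2-fold, 10.7% of 75 changed 4-fold and 48.6% of 70 changed 16-fold. Far fewer genes were changed there than passed in the data, so these shares do not carry over to the calls reported here. Same-numbered libraries deviated together (correlation over 0.1 for each of the 3 numbers) in all comparisons except S3 against S0-Low (0.0806, 0.131 and 0.105) and S3 against Lin+ (0.0905, 0.121 and 0.16), so values with the block are given where they change a call. The pairing rests on the numbers in the labels alone.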

Additional observations from a re-analysis of the deposited data

How the results depend on the processing

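From S0-Low to S3, 8 or 9 of the 9 genes were called in every alternative run, and no gene changed direction. The 8 were Ubb lost with library totals (1.06 on the log2 scale, adjusted p = 0.0505) and Ube2l6 not tested when at least 10 counts were required in every library, since it had 5 in replicate 3 of S0-Low. With 1 library left out, the log2 fold changes ranged from 4.85 to 5.63 for Ube2o, 6.83 to 8.15 for Ube2l6, 5.09 to 5.93 for Ube2h, 2.93 to 4.05 for Trim58, 8.99 to 10.3 for Trim10, 4.26 to 4.84 for Rnf123, 3.68 to 4.57 for Fbxo30, 4.52 to 5.09 for Ubac1 and 1.50 to 2.30 for Ubb, all past the threshold. The replicate block changed no call in this comparison, but it gave 9 calls in place of 7 from S2 to S3 and 4 in place of 3 from S0-Low to S1. It gave 1 call in place of 0 for S0-Medium against S0-Low and 1 in place of 0 for S1 against S0-Medium, and 4 in place of 1 for the later rise minus the earlier rise. Without a filter on low counts these became 1, 3 and 3 calls, and Lin+ against S0-Low 1 higher and 1 lower. DESeq2 gave 1 call from S0-Medium to S1 and 1 for Lin+ against S0-Low, and all 18 libraries in the fit gave 2 calls for the difference of rises. With only the 6 libraries compared, 4 of the 9 genes were called from S2 to S3, where the fit had fewer samples. Leaving out 1 library gave 3 to 9 calls from S2 to S3, 1 to 2 from S0-Low to S1, 7 to 9 from S1 to S3 and 0 to 2 for the difference of rises, whose sign turned without replicate 3 of S1 for Trim10 (range -2.08 to 0.33) and Ubac1 (-0.99 to 1.21). Where leaving out a library left a population with 2 libraries, the cause of a lost call was not tested. By Spearman's rho 2 of the 18 nearest genes were shared. Changes of 2-fold were not recovered in the simulation. It changed far fewer genes than passed in the data, so it does not give the power of the tests reported here.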
